A study of Homo sapiens with 10 samples.

Results

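The heterogeneous nuclear ribonucleoproteins (hnRNPs) and a set of related RNA binders were examined in EndoC-βH1 cells, a clonal human line that makes insulin and serves as a model of the pancreatic beta cell. The members were 37 genes named by family: the hnRNP genes, the poly(C)-binding and KH-type proteins, the FET proteins with TDP-43, the TIA proteins and the paraspeckle and nuclear matrix proteins. By Ensembl identifier 36 of the 37 were matched among 26346 genes, and all 36 were among the 13630 genes tested. TAF15, the remaining member, could not be matched and was not analysed here. Polyadenylated RNA was sequenced from 5 preparations given a control siRNA and 5 given siSR#2, which targets SRp55, a splicing factor and the product of SRSF6. The cells of both groups came from 1 line, both groups received an siRNA, and 1 siRNA sequence was used against SRp55, so a change due to SRp55 and a change due to that siRNA cannot be told apart. The values are RPKM, the read density per kilobase of transcript scaled to library size, summed over the transcripts of a gene.

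The hnRNPs coat nascent transcripts in the nucleus and take part in splice site choice, polyadenylation, export, stability and translation of RNA. Many hnRNPs oppose the serine/arginine-rich (SR) proteins, the family of SRp55, at exons where both bind. Many also limit their own level by including exons or keeping introns that send their transcripts to nonsense-mediated decay, the pathway that degrades transcripts with an early stop codon, or hold them in the nucleus.

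Assigned reads ran from 61.9 to 189.8 M per library (M, 10 to the power 6). SRSF6 averaged 98.2 ± 3.24 RPKM in control and 24.9 ± 3.78 RPKM after SRp55 siRNA (SD, n = 5). All 10 beta cell markers examined were expressed, INS among them, but so was SST, the hormone of delta cells (110 ± 76.5 RPKM in control libraries), while GCG, the alpha cell hormone, was at 0.113 ± 0.0550 RPKM and PPY, PRSS1 and CELA3A were at 0. PECAM1 could not be matched, and the acinar marker CPA1 and the duct marker KRT19 were detected at 20.9 ± 4.74 and 23.7 ± 4.54 RPKM. The summed RPKM of the other islet endocrine markers ran from 54.3 to 242 in control and 42.6 to 190.4 in SRp55 siRNA libraries. That of 6 acinar and duct markers ran from 36.4 to 53.8 and 41.6 to 97.7, and that of 5 mesenchymal, endothelial and immune markers from 34.3 to 50.9 and 31.2 to 52.2. CD68 made up most of this last sum, at 41.4 ± 5.98 RPKM in control libraries. COL1A1 was at 1.31 ± 0.792 RPKM there, and COL3A1, VWF and PTPRC averaged under 0.5 RPKM. The part of all these markers in the results below was not tested. In these bulk samples fewer cells of a type and less RNA per cell cannot be told apart. In all, 684 of 13630 tested genes (5.02%) changed between the groups at a limma adjusted p under 0.05, made up of 3.76% higher with SRp55 siRNA and 1.25% lower. Of the 10 beta cell markers SLC30A8 was called higher, at 77.3 ± 11.4 and 172 ± 24.6 RPKM (adjusted p = 0.0025). The other 9 were not called here, though other settings called some of them. Log2 fold changes are SRp55 siRNA over control siRNA on log2(RPKM + 0.5), relative to the median tested gene, which stood 0.11 higher as deposited. Their p-values refer to the change without this shift. Counts of pairs, overlap and exact permutation p-values for gene RPKM below are also as deposited, with the shift left in. On that scale, which favours a rise, 10 members were higher and 3 lower in 5 of 5 pairs. The share over all genes was not counted, so these counts are not read as a result about the members.

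Sites in the 3′ untranslated region (3′ UTR) are shown first for 5 members that hold either of the words described next. These 5 were called on RPKM or on summed reads without a replicate block, so these sites were picked by outcome. The other 8 members with either word are named after the sequences, and their sites are not printed. Across all genes of these libraries, genes that hold CAGGCTT or AGGCTTA in the 3′ UTR had lower fold changes, and both words were taken from that earlier result. Sequences are from GENCODE 44 on GRCh38, with the word in capitals, in the sense strand of each gene's canonical transcript. Whether the transcripts measured here hold these sites was not checked. HNRNPH2, TIAL1, PCBP2 and HNRNPR were lower with SRp55 siRNA on summed reads, a gene's estimated reads scaled to the reads assigned in the library (RPM, reads per M assigned), and HNRNPA3 was higher on RPKM (limma adjusted p under 0.05). HNRNPC, whose site is not printed, was called higher on summed reads once the replicate number was added as a block. The stretches lie, in the order shown, at chrX:101413538-101413562 on the plus strand, chr10:119574274-119574298 on the minus strand, chr12:53480205-53480229 on the plus strand, chr1:23310189-23310213 and chr1:23309191-23309215 on the minus strand, and chr2:177220647-177220671 on the plus strand.
HNRNPH2: tttgcattaCAGGCTTgtgattcat
TIAL1: gcctgagcagAGGCTTAagttgtat
PCBP2: ccccttgttCAGGCTTgcatatttt
HNRNPR, first site: ttatcgtttCAGGCTTcattttagc
HNRNPR, second site: cttgtaagagAGGCTTAaaaatatc
HNRNPA3: tgcttagtaCAGGCTTctcacttcc

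CAGGCTT was held by the 3′ UTR of 8 of 36 members (RALY, HNRNPR, HNRNPD, HNRNPA0, HNRNPH2, HNRNPA3, TIA1 and PCBP2), and by 15.4% of the 12632 tested genes with an annotated 3′ UTR. AGGCTTA was held by 6 members (HNRNPL, HNRNPUL2, HNRNPR, HNRNPA1, TIAL1 and HNRNPC) and by 9.14% of those genes. The words overlap in AGGCTT, which 16 members and 36.9% of the genes held in any context. HNRNPLL and PCBP1, which were also lower on summed reads, hold no AGGCTT there. The 8 members with CAGGCTT had a median log2 fold change of -0.04 on RPKM, against -0.08 for all 1945 genes with it, and the 20 members without AGGCTT had -0.01, against 0.04 for the 7969 such genes. The 6 members with AGGCTTA had -0.09, against -0.08 for all 1154 genes with it. On summed reads the 8 members with CAGGCTT stood at -0.0026 against -0.09 for all genes with it, the 6 with AGGCTTA at -0.0043 against -0.09, and the 20 without AGGCTT at -0.01 against 0.03. A 3′ UTR with CAGGCTT had a median length of 3092 bases against 798 without AGGCTT, and the members' had 1704, so the word goes with length.

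HNRNPA3 alone changed at the level of the gene in the main fit, on RPKM without pairing, and the other 35 members did not pass there. With the replicate number as a block, FUBP1, HNRNPM, SFPQ and HNRNPH2 passed besides HNRNPA3, 5 of 36 members beside 13.1% of all genes. Also without pairing, median-of-ratios scaling called 4 members beside 6.74% of all genes. Summed reads called 7 beside 17.2%, and HNRNPA3 was not among these 7. HNRNPA3 encodes an A/B-type hnRNP that binds RNA through a pair of RNA recognition motifs and rose to 143% of its control mean in RPKM. The count of 1 of 36 members called in the main fit stands beside 5.02% of all tested genes. The median log2 fold change of the 36 members was -0.03, with an interquartile range of -0.09 to 0.08, against 0 by construction and -0.17 to 0.19 over all tested genes. The members' middle range was thus the narrower of these. At an unadjusted p under 0.05 stood 9 of 36 members and 21.9% of all tested genes.

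**Figure D1:**
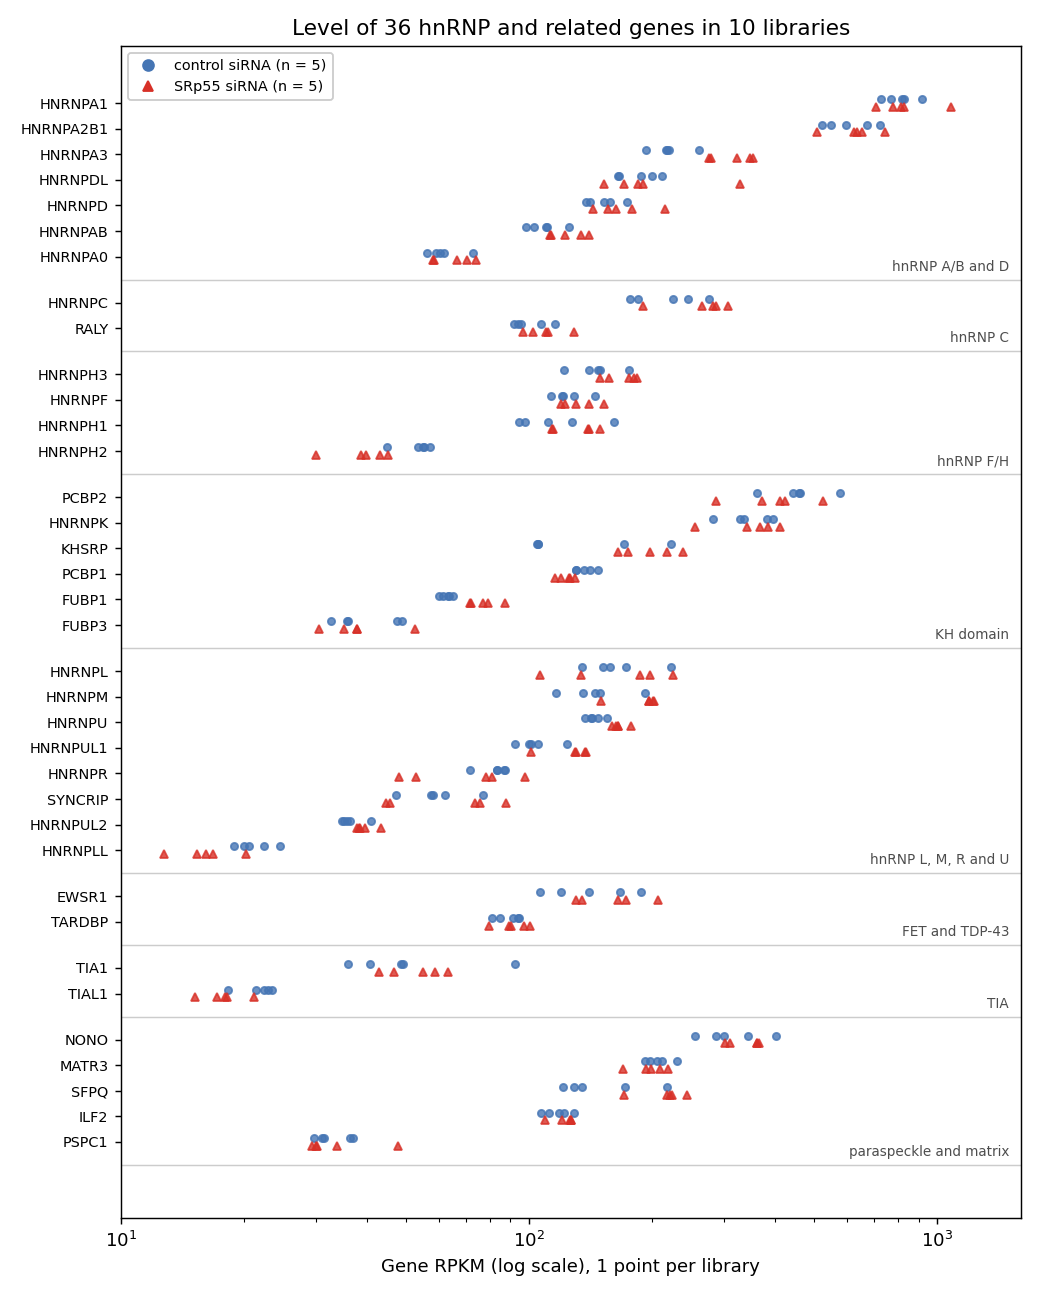
Gene RPKM on a log axis of the 36 members, grouped by family, with 1 point per library (circles, control siRNA; triangles, SRp55 siRNA; n = 5 each). HNRNPA3 lies at 194 to 261 RPKM in control libraries and at 276 to 354 RPKM with SRp55 siRNA, and most other members overlap between groups.

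In control libraries the members were abundant transcripts: 24 of 36 had a mean above 100 RPKM, and 28 stood at or above the 90th percentile of tested genes. HNRNPA1, the prototype of the A/B family, was the most abundant at 813 ± 71.7 RPKM (SD, n = 5). HNRNPA2B1 followed at 614 ± 84.9 RPKM, PCBP2 at 460.2 ± 76.8 RPKM, HNRNPK at 345 ± 45.2 RPKM and NONO at 318 ± 56.7 RPKM. The library values of HNRNPA2B1, PCBP2, HNRNPK and NONO overlapped from each to the next in this order, while the highest HNRNPA2B1 library, at 726 RPKM, lay just below the lowest HNRNPA1 library, at 728 RPKM. At the low end were PSPC1 at 33.2 ± 3.34 RPKM, TIAL1 at 21.7 ± 2.07 RPKM and HNRNPLL at 21.3 ± 2.22 RPKM, still at the 66.9th percentile of tested genes. The coefficient of variation over control libraries was under 10% in 14 members and over 20% in 5 (HNRNPH1, KHSRP, EWSR1, TIA1 and SFPQ). The genes of 10 members overlap another gene at 0.5 RPKM or more, and hnRNP genes have close paralogs and processed pseudogenes, so reads may be split among copies and levels are less certain there.

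A few libraries often stood at the ends of their group. Control replicate 4 had the highest value of its group in 29 of 36 members and control replicate 5 the lowest in 22. SRp55 siRNA replicate 5 had the lowest value of its group in 26 members, while replicates 4 and 1 had the highest in 13 and 12. The median-of-ratios size factor was 1.10 in control replicate 4 and 0.864 in control replicate 5, 0.914 in SRp55 siRNA replicate 5 and 1.15 in replicate 1. Their part in the results below is given by the scaled values and by the fits without a library.

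In the A/B and D family 1 of 7 members rose and 6 did not pass. HNRNPA3 (chr2:178077291-178088686, GRCh37) was at 217, 220.5, 217, 261 and 194 RPKM in control replicates 1 to 5 and at 279.7, 349, 354, 324 and 276 RPKM in SRp55 siRNA replicates 1 to 5. Every SRp55 siRNA library lay above every control library, and control replicate 4, the highest, came close to the lowest of the treated ones. Its log2 fold change came to 0.40 with an SE of 0.12 (limma adjusted p = 0.041), with means of 222 ± 24.2 and 316 ± 37.02 RPKM (SD, n = 5). Exact two-sided permutation of the 10 libraries gave p = 0.00794, its lower limit. Any gene without overlap reaches this value, so here and below it adds nothing to the lack of overlap. The permutation also takes no account of the pairs of equal replicate number.

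The HNRNPA3 call lay close to the threshold and was lost without any 1 of 7 libraries. Its limma adjusted p was 0.087, 0.096, 0.091 and 0.093 without control replicates 1, 2, 3 and 5, and 0.10, 0.10 and 0.092 without SRp55 siRNA replicates 2, 3 and 4. The log2 fold change in these 7 fits was 0.36 to 0.41, close to the value with all libraries, and the calls over all genes numbered 259 to 330 against 684 in the same fits. It passed without control replicate 4 or SRp55 siRNA replicate 1 or 5, with the replicate number as a block (0.021) and under median-of-ratios scaling (0.049). On summed reads, which give long transcripts more weight, HNRNPA3 was at 527, 614, 582, 566 and 644 RPM in control libraries and 581, 739, 729, 709.7 and 744 with SRp55 siRNA. There SRp55 siRNA replicate 1 lay within the control range, and the log2 fold change of 0.27 did not pass (adjusted p = 0.060).

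HNRNPA3 has 5 listed transcripts, and the difference was widest in the shortest of the 4 tested. ENST00000432457.2, a coding transcript of 643 bases, went from 71.97 ± 25.2 to 128 ± 28.6 RPKM, and from 31.8% ± 7.90 to 39.9% ± 4.44 of the gene's RPKM (SD, n = 5). The longer ENST00000392524.2, of 2067 bases, went from 70.1 ± 9.24 to 86.1 ± 8.30 RPKM and ENST00000411529.2, of 5688 bases, from 38.1 ± 1.60 to 44.6 ± 2.84 RPKM. All of these means were higher with SRp55 siRNA, and the usage of the 643-base transcript had an adjusted p of 0.58 (limma diffSplice). Its usage difference of 8.13 percentage points was 3.86 on estimated reads and 5.25 without control replicate 5. RPKM divides by length, so a short transcript weighs more in the gene's RPKM sum than in its reads, and the weight of this transcript in the call was not tested. The 3′ UTR searched for HNRNPA3 sites has 4567 bases, more than the whole of the 643-base and 2067-base transcripts measured here.

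HNRNPA1, the family's most abundant member, shuttles between nucleus and cytoplasm and is a classical splicing repressor. It was measured at 772, 818, 828, 919.7 and 728 RPKM in the control libraries and at 1082, 781, 815, 831 and 708 RPKM with SRp55 siRNA, with overlapping groups and SRp55 siRNA replicate 1 on top. Its log2 fold change was -0.07 (limma adjusted p = 0.89). HNRNPA0, HNRNPA2B1, HNRNPAB, HNRNPD, which is also known as AUF1 and binds AU-rich elements, and HNRNPDL had log2 fold changes between -0.06 and 0.07 with adjusted p-values of 0.37 to 0.88.

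**Figure D2:**
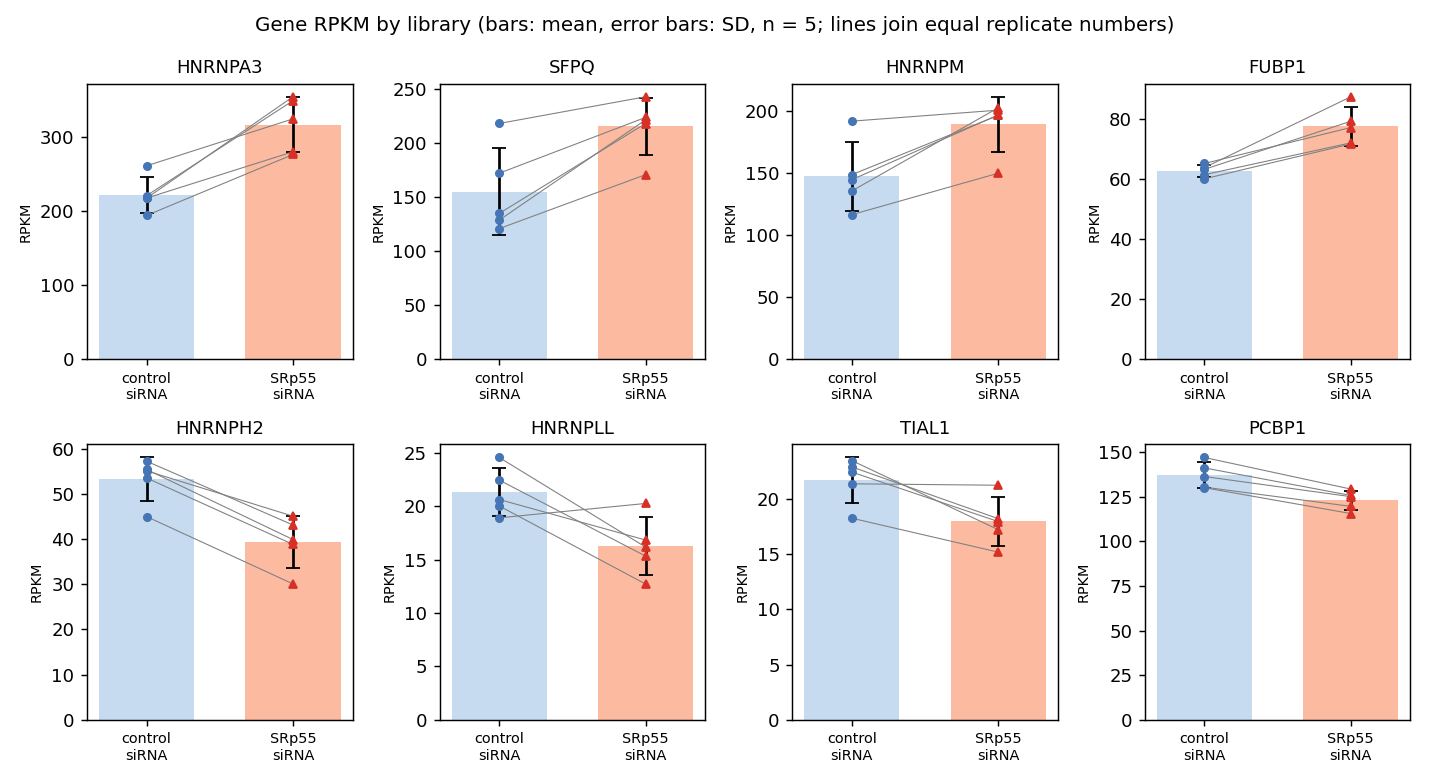
Gene RPKM by library of 8 members; bars give the mean, error bars the SD (n = 5), and thin lines join equal replicate numbers. HNRNPA3 and FUBP1 lie above, and PCBP1 below, their control values in every library, while HNRNPH2, HNRNPLL, TIAL1, SFPQ and HNRNPM overlap with control in at least 1 library.

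No member of the other families passed in this test, but several were called when the scaling, the quantity or the pairing was treated differently, and these are given with each setting's own share of called genes. With the replicate number as a block 5 of 36 members were called, 4 higher (HNRNPA3, FUBP1, HNRNPM and SFPQ) and 1 lower (HNRNPH2), beside 13.1% of all genes, 9.39% higher and 3.7% lower. With median-of-ratios scaling 4 were called, HNRNPA3 higher and HNRNPH2, HNRNPLL and TIAL1 lower, beside 6.74% of all genes, 3.02% higher and 3.72% lower. On summed reads 7 were called, SFPQ higher and HNRNPH2, HNRNPLL, HNRNPR, PCBP1, PCBP2 and TIAL1 lower, beside 17.2% of all genes, 7.3% higher and 9.87% lower. Chosen after seeing the data, the block joined to summed reads called 13 members beside 36.3% of genes, and joined to median-of-ratios scaling 6 beside 11.6%. Without control replicate 4, 3 members were called (HNRNPA3, KHSRP and SFPQ), beside 7.96%. The share of members called was near or a little above these backgrounds, though members with a difference near 0 could change sign. HNRNPL, TIA1 and HNRNPDL had -0.12, -0.04 and -0.02 on RPKM but 0.07, 0.09 and 0.02 on summed reads, with no call in either.

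Among the F/H proteins, which bind G-rich runs, HNRNPH2 had the lowest fold change of all members. HNRNPH2 (chrX:100663283-100669121, GRCh37) was at 55.4, 53.5, 57.2, 55.1 and 44.95 RPKM in control replicates 1 to 5 and at 39.9, 38.8, 43.1, 45.05 and 30.1 RPKM in SRp55 siRNA replicates 1 to 5. It was lower in 5 of 5 pairs of equal number, and the groups overlapped only at SRp55 siRNA replicate 4 and control replicate 5. HNRNPH2's log2 fold change of -0.55 had an SE of 0.13 and a limma adjusted p of 0.075, which did not pass. The adjusted p was 0.016 with the replicate block and 0.012 under median-of-ratios size factors. On summed reads it was at 144 ± 10.7 and 100.5 ± 10.9 RPM (SD, n = 5), with no overlap, a log2 fold change of -0.51 and an adjusted p of 0.0016.

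HNRNPH2 has 1 listed transcript, so its RPKM and reads differ only in their scaling. It lies inside the readthrough gene RPL36A-HNRNPH2 on the same strand, which held a mean of 1788 reads against 14674 for HNRNPH2, and it is a near copy of HNRNPH1, so its reads may be shared with either. HNRNPH1 was at 118 ± 27.4 RPKM in control libraries and 131 ± 16.3 with SRp55 siRNA, which gave 0.06 in log2 (adjusted p = 0.58). HNRNPH3, the family's most abundant member in control libraries, was at 149, 139.96, 147, 175 and 122 RPKM there and 181, 157, 184, 175 and 149 RPKM with SRp55 siRNA. The groups overlapped, though it was higher in 5 of 5 pairs (log2 fold change 0.10, adjusted p = 0.35). HNRNPF had -0.03 (adjusted p = 0.71).

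HNRNPC, which binds uridine tracts and shields introns from use as exons, and RALY, its close relative, did not pass on RPKM. HNRNPC was measured at 245, 225, 185, 275 and 176 RPKM in the control libraries and at 265, 307, 287, 283 and 190.03 RPKM with SRp55 siRNA. It was higher in 5 of 5 pairs as deposited, and SRp55 siRNA replicates 1 and 5 lay within the control range (log2 fold change 0.16, limma adjusted p = 0.39). On summed reads with the replicate block, chosen after seeing the data, HNRNPC was called higher (adjusted p = 0.027), beside 15.8% of all genes. RALY had 0.01 on RPKM (adjusted p = 0.58).

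The KH domain proteins bind single-stranded C-rich or U-rich RNA, and none of 6 passed on RPKM. PCBP1 (chr2:70314585-70316332, GRCh37), a gene without introns whose product binds poly(C), was measured at 136, 130.1, 141, 147 and 130.5 RPKM in the control libraries and at 125, 116, 126, 129 and 119.7 RPKM with SRp55 siRNA. Every SRp55 siRNA library lay below every control library, by less than 1 RPKM at the nearest. Its log2 fold change was -0.26 (SE 0.09, adjusted p = 0.37, exact permutation p = 0.00794). On summed reads, where the groups did not overlap either (293 ± 14.9 and 248 ± 17.3 RPM, SD, n = 5), it was -0.22 with an adjusted p of 0.032.

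PCBP2, the most abundant KH protein gene, was also lower in mean, with more spread. It was measured at 461, 443, 458, 577 and 362 RPKM in the control libraries and at 526, 372, 412, 423 and 288 RPKM with SRp55 siRNA, with wide overlap and SRp55 siRNA replicate 1 the highest of its group. Its log2 fold change was -0.31 (SE 0.18, adjusted p = 0.55). On summed reads PCBP2 stood at 766 ± 52.02 and 609 ± 80.5 RPM, and -0.32 passed (adjusted p = 0.026). PRR13, on the same strand, overlaps PCBP2 with a mean of 15302 reads against 82959, so some of these reads are less certain.

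FUBP1, a regulator of MYC transcription and of splicing, was higher in mean. It was measured at 61.4, 63.1, 63.7, 65.1 and 59.98 RPKM in the control libraries and at 71.96, 79.1, 87.3, 77.1 and 71.6 RPKM with SRp55 siRNA, with no overlap and an exact permutation p of 0.00794. On RPM the FUBP1 groups overlapped. The log2 fold change of 0.19 (SE 0.09) had an adjusted p of 0.096, 0.036 with the replicate block and 0.31 with median-of-ratios scaling. KHSRP, a decay factor for AU-rich messages that binds with FUBP1's type of KH domains, was at 170.4, 105, 104, 222 and 105 RPKM in control and 238, 198, 174, 218 and 166 RPKM in SRp55 siRNA libraries. Control replicate 4 alone lay within the upper SRp55 siRNA values, and replicate 1 above the lowest of them. Its log2 fold change of 0.44 (SE 0.22, adjusted p = 0.19) became 0.58 and passed without control replicate 4 (adjusted p = 0.036). HNRNPK, the founder of the KH proteins, had -0.08 (adjusted p = 0.95) and FUBP3 -0.16 (adjusted p = 0.88).

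In the group of L, M, R and U proteins none of 8 passed on RPKM. HNRNPLL, a relative of HNRNPL known for exon skipping of CD45 in lymphocytes, was the lowest in level, at 24.6, 18.9, 20.6, 22.5 and 20.04 RPKM in control libraries and 16.2, 20.3, 16.8, 15.3 and 12.7 RPKM with SRp55 siRNA. SRp55 siRNA replicate 2 was within the control range and the other 4 lay below it. The log2 fold change was -0.50 (SE 0.13, adjusted p = 0.11), with adjusted p-values of 0.024 under median-of-ratios scaling and 0.089 with the replicate block. On summed reads the groups stood apart at 61.8 ± 5.64 and 48.2 ± 3.83 RPM (log2 fold change -0.34, adjusted p = 0.012).

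HNRNPR, which binds RNA in nucleus and cytoplasm with SYNCRIP as its near relative, was measured at 83.5, 87.4, 83.6, 86.95 and 71.5 RPKM in the control libraries and at 52.8, 78.5, 81.1, 97.6 and 47.9 RPKM with SRp55 siRNA. The treated libraries spread from below to above all controls, with replicates 1 and 5 low and replicate 4 high. HNRNPR had a log2 fold change of -0.36 (SE 0.19, adjusted p = 0.47), and on summed reads -0.28 (adjusted p = 0.041). SYNCRIP had -0.03 (adjusted p = 0.86) and the same low libraries, replicates 1 and 5, in its SRp55 siRNA group.

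HNRNPM, a splicing regulator that binds GU-rich RNA, was measured at 136, 145, 149, 192 and 117 RPKM in the control libraries and at 203, 197, 197, 201 and 149.97 RPKM with SRp55 siRNA. It was higher in 5 of 5 pairs, with 4 treated libraries close together above all controls and SRp55 siRNA replicate 5 within the control range. The log2 fold change was 0.26 (SE 0.15), with an adjusted p of 0.18, or 0.048 with the replicate block. HNRNPU, a large scaffold protein that holds RNA to chromatin, was at 145 ± 6.91 and 166 ± 6.81 RPKM (SD, n = 5), with no overlap and an exact permutation p of 0.00794. Its log2 fold change was 0.19 as deposited and 0.08 relative to the median tested gene (adjusted p = 0.25). On RPM the HNRNPU groups overlapped, at 587 ± 58.7 and 633 ± 59.5. Of all 36 members 3 lay without overlap above control on RPKM (HNRNPA3, FUBP1 and HNRNPU) and 1 below (PCBP1), beside 7.92% of tested genes in either direction, 5.61% above and 2.32% below. On RPM the counts were 2 above (HNRNPM and SFPQ) and 4 below (HNRNPH2, HNRNPLL, PCBP1 and TIAL1), beside 13.8% of tested genes, 5.6% above and 8.21% below.

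HNRNPL, the group's most abundant member and a binder of CA repeats, was measured at 222, 158, 172, 135 and 152 RPKM in the control libraries and at 187, 106, 225, 198 and 134 RPKM with SRp55 siRNA. The treated range enclosed the control range (log2 fold change -0.12, adjusted p = 0.98). HNRNPUL1 and HNRNPUL2, relatives of HNRNPU, had 0.17 (adjusted p = 0.22) and 0.00 (adjusted p = 0.52), each higher in 5 of 5 pairs as deposited.

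Of the FET and TDP-43 genes, EWSR1, an RNA and DNA binder fused to other genes in Ewing sarcoma, was the most abundant. It was measured at 167, 141, 107, 188 and 119.5 RPKM in the control libraries and at 207, 173, 135, 165 and 130.02 RPKM with SRp55 siRNA, with overlapping groups (log2 fold change 0.07, limma adjusted p = 0.62). TARDBP, which encodes TDP-43, a repressor of cryptic exons, was at 89.01 ± 5.79 and 91.3 ± 8.09 RPKM, a log2 fold change of -0.07 (adjusted p = 0.88).

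The TIA proteins bind U-rich RNA next to 5′ splice sites and build stress granules. TIAL1, also known as TIAR, was measured at 21.4, 22.4, 22.9, 23.5 and 18.2 RPKM in the control libraries and at 21.2, 17.9, 18.2, 17.2 and 15.2 RPKM with SRp55 siRNA. It was lower in 5 of 5 pairs, with control replicate 5 low among controls and SRp55 siRNA replicate 1 high among treated libraries. The log2 fold change was -0.38 (SE 0.11, adjusted p = 0.20), and the adjusted p was 0.033 under median-of-ratios size factors. On summed reads the groups stood apart at 44.3 ± 2.64 and 34.95 ± 1.42 RPM, with -0.32 (adjusted p = 0.006).

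TIA1 was at 48.95, 36.01, 40.8, 92.2 and 48.6 RPKM in control libraries, where replicate 4 stood far above the rest, and at 46.7, 63.3, 58.7, 54.98 and 42.98 RPKM with SRp55 siRNA. The group means were alike, at 53.3 ± 22.4 and 53.3 ± 8.38 RPKM, and the log2 fold change was -0.04 with an SE of 0.23 (adjusted p = 0.89).

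SFPQ, NONO and PSPC1 are the core proteins of paraspeckles, nuclear bodies built on the long noncoding RNA NEAT1. NEAT1 was at 0.387 ± 0.188 RPKM in control libraries, which hold polyadenylated RNA, so NEAT1 RNA without a poly(A) tail would be missed. SFPQ was measured at 172, 129, 135, 218 and 121 RPKM in the control libraries and at 224, 222, 218, 243 and 171 RPKM with SRp55 siRNA. It was higher in 5 of 5 pairs, and control replicates 4 and 1 reached into the treated range. The log2 fold change was 0.39 (SE 0.17, adjusted p = 0.13), with an adjusted p of 0.037 with the replicate block and 0.029 without control replicate 4. On summed reads the groups did not overlap, at 350.2 ± 20.8 and 424 ± 25.3 RPM (log2 fold change 0.29, adjusted p = 0.015).

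NONO, the most abundant paraspeckle gene, was measured at 301, 344, 288, 402 and 255 RPKM in the control libraries and at 367, 362, 362, 311 and 302 RPKM with SRp55 siRNA. The treated values lay inside the control range (log2 fold change 0.00, adjusted p = 0.68). PSPC1, MATR3, a nuclear matrix protein, and ILF2, a double-stranded RNA-binding partner, had log2 fold changes of -0.08, -0.18 and -0.06 with adjusted p-values of 0.94, 0.75 and 0.81.

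**Figure D3:**
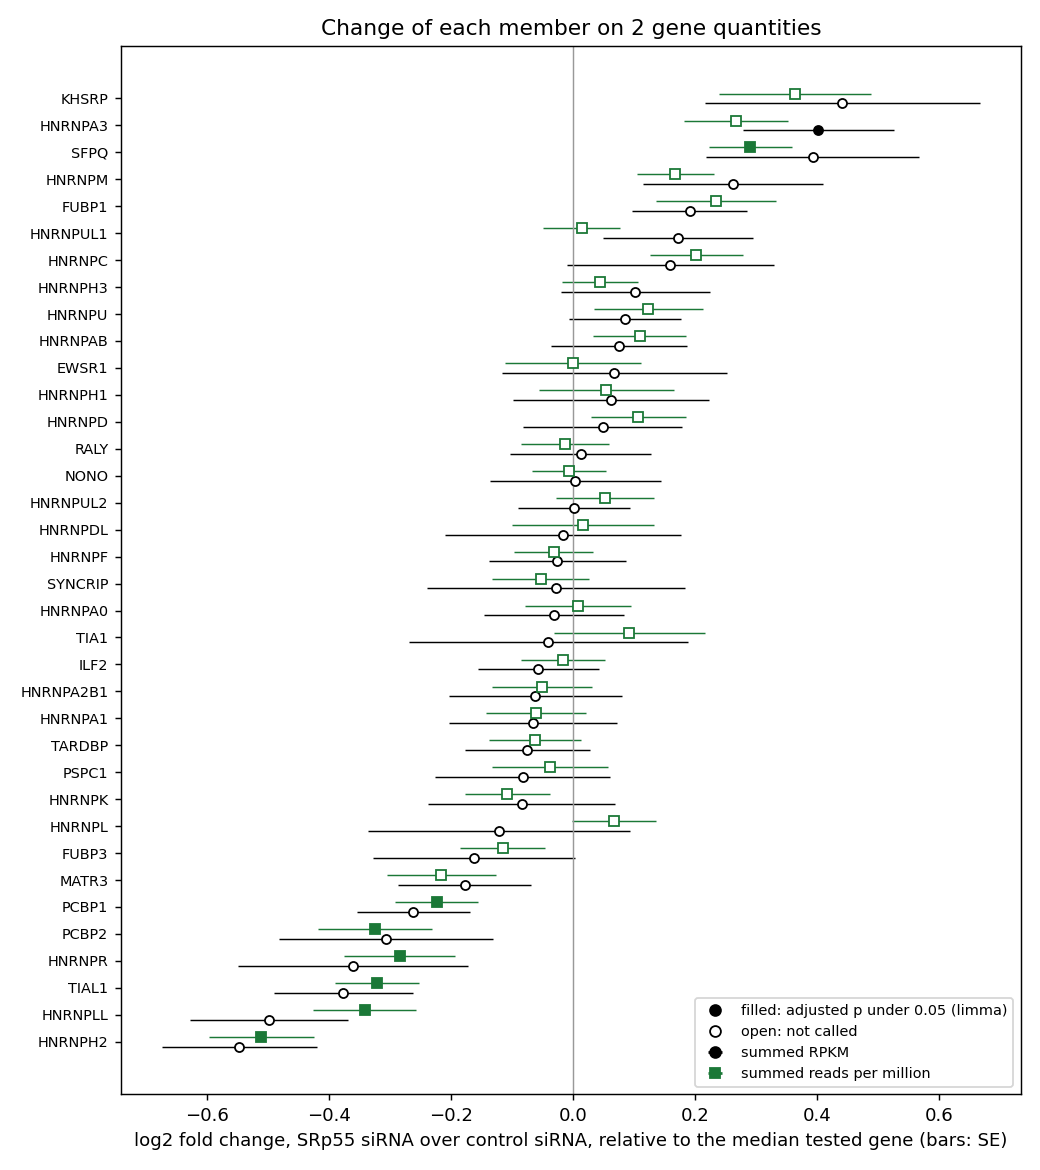
Log2 fold change of each member, SRp55 siRNA over control siRNA relative to the median tested gene, on summed RPKM (black circles) and summed RPM (green squares); bars are the SE and filled points have a limma adjusted p under 0.05. On RPKM the filled point is HNRNPA3 alone, and on reads SFPQ is filled on the higher side and 6 members on the lower.

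Transcript usage, the percent of a gene's RPKM held by 1 transcript, was tested in 31 of 36 members among 9915 genes. No member was called, beside 34 genes or 0.343% in all, where a call needed an adjusted p under 0.05 (limma diffSplice) and a shift of at least 10 percentage points. A shift of that size whatever the p was seen in 4 members (HNRNPAB, HNRNPL, HNRNPLL and HNRNPM), beside 36.4% of genes. The smallest adjusted p was 0.61, in HNRNPAB, the only member with an unadjusted p under 0.05, beside 8.17% of genes.

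HNRNPL had the widest shift of the members, and its usage differed widely within both groups. ENST00000221419.5, the long coding transcript, held 3.85, 8.57, 4.04, 70.7 and 3.63% of HNRNPL RPKM in control replicates 1 to 5 and 46.9, 77.6, 3.99, 30.8 and 54.04% in SRp55 siRNA replicates 1 to 5. Control replicate 4 stood with the high treated libraries, and SRp55 siRNA replicate 3 with the low controls. The difference was 24.5 percentage points, and 37.6 without control replicate 4, with transcript adjusted p-values of 0.76 and 0.18, and 15.8 without SRp55 siRNA replicate 2. ENST00000600873.1 differed in the opposite direction, from 26.1% ± 15.3 to 8.19% ± 10.6 (SD, n = 5), and was listed at 0 in control replicate 4 and in 2 treated libraries.

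TIA1 held both of the members' transcripts whose usage did not overlap between groups, 2 of 146 tested, beside 1.2% of the 37341 transcripts tested in all, 0.573% with SRp55 siRNA above control and 0.624% below. ENST00000415783.2, a coding transcript of 4633 bases, held 12.7, 14.5, 16.5, 6.91 and 17.9% in control libraries and 23.6, 18.1, 20.1, 23.2 and 28.9% with SRp55 siRNA. ENST00000481650.1, annotated as a retained intron transcript, held 6.08, 9.39, 2.06, 6.01 and 3.63% and 12.1, 23.7, 14.7, 10.7 and 13.03%. Without overlap both were by construction higher in 5 of 5 pairs with an exact permutation p of 0.00794, so neither figure adds support. The transcript adjusted p-values were 0.98 and 0.56 (limma diffSplice), and that of the gene was 0.90. As shares of estimated reads the difference was 18.7 percentage points for ENST00000415783.2, against 9.09 on RPKM, and 2.46 for ENST00000481650.1, against 9.41 on RPKM. In RPKM they went from 6.65 ± 1.27 to 11.9 ± 0.705 and from 2.90 ± 1.79 to 8.15 ± 4.04 (SD, n = 5). C2orf42 overlaps TIA1 on the same strand, with a mean of 1914 reads against 15530.

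HNRNPAB, HNRNPLL and HNRNPM showed shifts among coding transcripts with wide spread. HNRNPAB ENST00000514633.1 held 17.3% ± 17.9 and 3.74% ± 3.18 (SD, n = 5), where control replicate 5 alone held 46.3%, and the difference of -13.6 percentage points was -6.33 without it. HNRNPLL ENST00000409328.1 held 25.9% ± 20.8 and 11.8% ± 15.9, and the libraries ran from 0.656% to 43.4% in control and from 0.250% to 36.7% with SRp55 siRNA. HNRNPM ENST00000325495.4 was lower in 5 of 5 pairs, at 39.3% ± 4.64 and 27.2% ± 8.96, with an exact permutation p of 0.024 and a transcript adjusted p of 0.96.

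**Figure D4:**
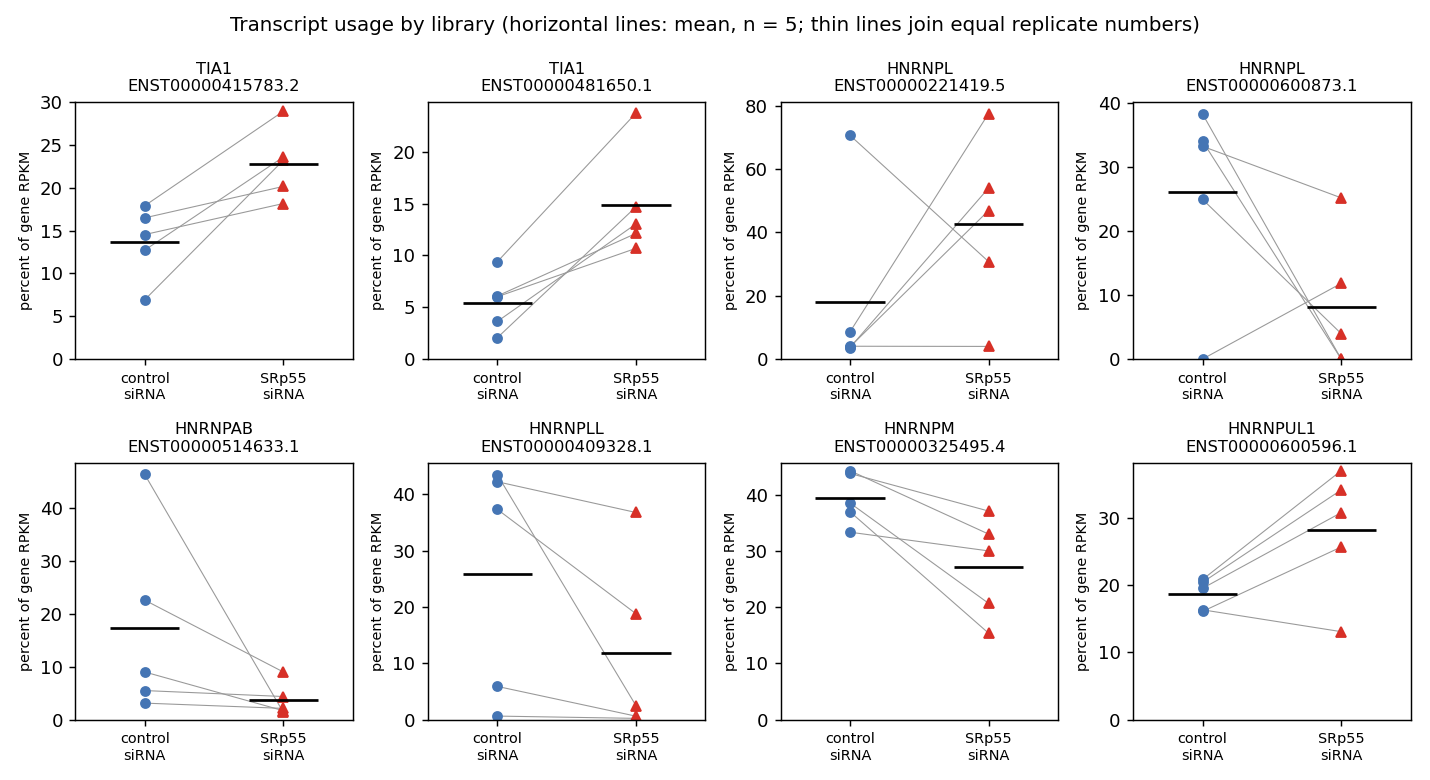
Usage by library of 8 transcripts of 6 members, as percent of the gene's RPKM; horizontal lines are means (n = 5) and thin lines join equal replicate numbers. The 2 TIA1 transcripts separate between groups, whereas HNRNPL ENST00000221419.5 shows control replicate 4 at 70.7% and the other controls at 3.63 to 8.57%.

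Several members carried much of their RPKM in transcripts annotated for nonsense-mediated decay, in control cells already. The share was at least 20% in 8 of 36 members, beside 10.7% of 11176 coding genes at 2 RPKM or more. SFPQ led with 56.9% ± 8.31 (SD, n = 5), followed by PSPC1 at 41.5% ± 8.95 and FUBP1 at 38.4% ± 10.5, and HNRNPDL, HNRNPD, HNRNPUL1, HNRNPA1 and HNRNPK lay between 24.0% and 29.5%. An annotated decay transcript was present in 18 of 36 members and in 43.5% of those genes. For retained intron transcripts the share was at least 20% in 7 of 36 members (HNRNPC, TIA1, KHSRP, HNRNPA2B1, HNRNPU, HNRNPH1 and EWSR1), beside 14.1% of genes, with HNRNPC at 33.3% ± 8.53. The median share pointed the other way, at 2.81% in the 24 members with an annotated retained intron transcript against 6.93% in the 6634 such genes, while that of the decay share was 8.66% against 7.92%. These shares rest on RPKM, which raises short transcripts such as these.

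No member was called in either share. Of 16 members tested for the decay share none was called, beside 1 of 4238 genes (0.0236%), and 1 member had an unadjusted p under 0.05. That member was HNRNPUL1, at 24.8% ± 3.73 in control libraries and 34.3% ± 5.42 with SRp55 siRNA (SD, n = 5; limma adjusted p = 0.87). Its decay transcript ENST00000600596.1 held 16.1, 20.4, 20.8, 19.5 and 16.3% of the RPKM in control libraries and 25.6, 34.1, 36.98, 30.8 and 13.1% with SRp55 siRNA. Replicate 5 was the lowest of the treated libraries and lay below all controls, while the other 4 lay above them. On estimated reads the difference was 3.72 percentage points for the HNRNPUL1 share, against 9.45 on RPKM, and 3.33 for this transcript, against 9.48. SFPQ went to 63.9% ± 3.77 (adjusted p = 0.87), a difference of 7.07 percentage points that was 4.64 without control replicate 5, with its decay transcript ENST00000470472.1 at 89.9 ± 37.5 and 137 ± 22.8 RPKM and its coding transcript ENST00000357214.5 at 49.1 ± 2.98 and 59.1 ± 3.61 RPKM.

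Of 19 members tested for the retained intron share none was called, beside 1 of 5556 genes (0.018%). TIA1 was at 30.01% ± 10.3 in control libraries and 37.6% ± 4.76 with SRp55 siRNA (SD, n = 5; limma adjusted p = 0.88). This difference of 7.64 percentage points was 1.06 on estimated reads and 4.89 without control replicate 4. KHSRP was at 29.7% ± 1.84 and 34.4% ± 3.03 (adjusted p = 0.88). HNRNPM, at 0.861% ± 0.384 and 2.64% ± 1.67, was the 1 member with an unadjusted p under 0.05 here.

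**Figure D5:**
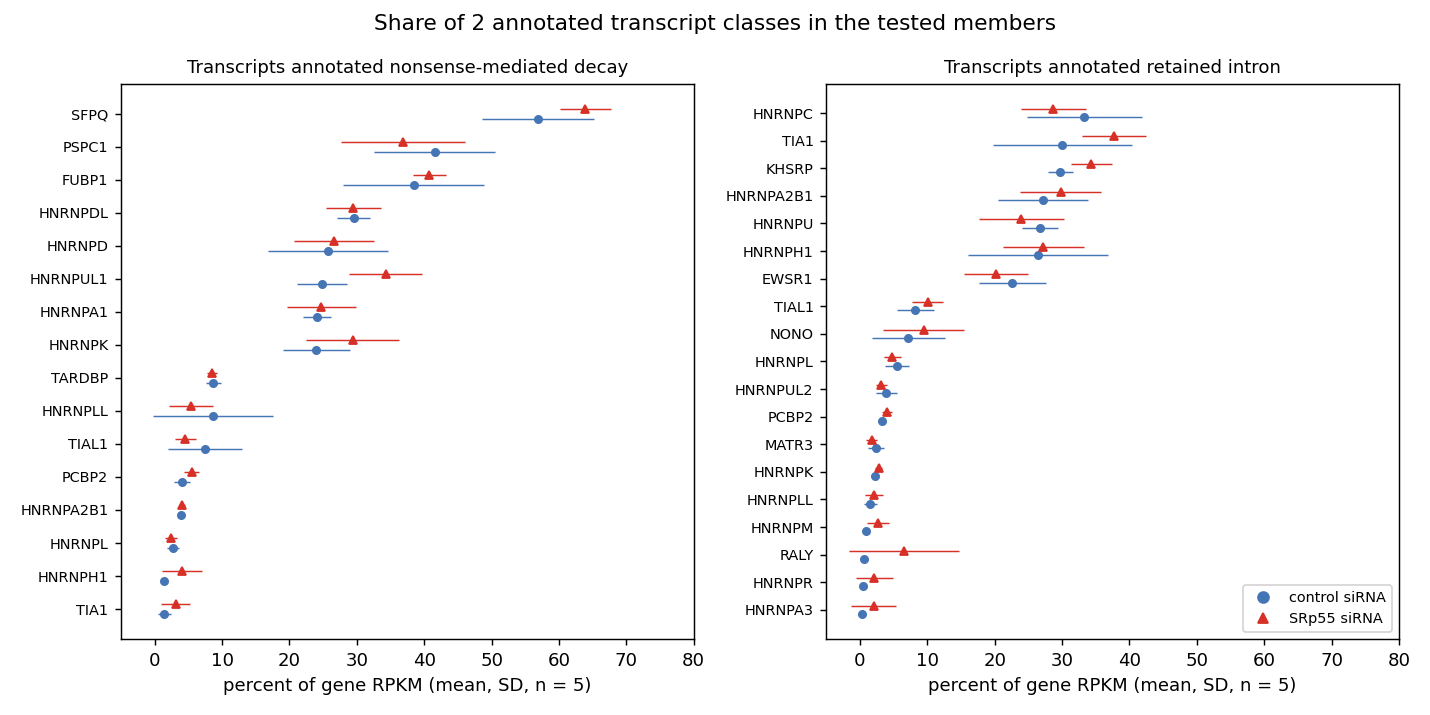
Percent of gene RPKM in transcripts annotated nonsense-mediated decay (left, 16 members) and retained intron (right, 19 members); points are means and bars the SD (n = 5 libraries per group). SFPQ has the highest decay share in both groups, and the bars of the groups overlap in all members but HNRNPUL1 on the left.

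Of 39 other genes of hnRNP biology, among them partners, importers, granule proteins and 3′ end factors, 34 were tested and none was called on RPKM, beside 5.02% of all genes, with 7 at an unadjusted p under 0.05. Their median log2 fold change was 0.06. IGF2BP1, IGF2BP2, YBX3, NEAT1 and RALYL had a mean under 0.5 RPKM and were not tested. With the replicate block 4 of the 34 were called higher, beside 9.39% of all genes. Median-of-ratios scaling called 1 higher, beside 3.02% of all genes. On summed reads 3 were called higher and 3 lower, beside 7.3% and 9.87% of all genes.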

How the data were processed

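Polyadenylated RNA of 10 EndoC-βH1 preparations, 5 per siRNA and independent per the series' design text, was sequenced. TopHat and GRCh37 (hg19) are named in the submitters' processing notes. For the counting program, strand and annotation release, nothing is given in the sources used here. The deposited files list, per transcript, estimated reads and RPKM, other text attributes of 1 field written by the authors. They were summed per gene and joined to GENCODE 44 symbols (95.0% of genes) and biotypes (92.4% of transcripts). Assigned reads ranged from 61.9 to 189.8 M per library.

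The members and lists were chosen with earlier results of these data known. All 37 members are accounted for, with library values for members called in any of 4 fits and for the most abundant of each family. Genes averaging 0.5 RPKM or more were tested with limma 3.58.1 (R 4.3.3, trend and robust) on log2(RPKM + 0.5), adjusted over all genes by Benjamini-Hochberg at 0.05. On this scale fold changes of low genes are understated. Usage was tested with diffSplice on transcripts of at least 0.5 RPKM and 5% usage. Decay and retained intron shares were tested with limma on the percent, in coding genes of at least 2 RPKM with a share of 1 to 99%. Single values were compared by exact permutation of all 10 libraries, which ignores the pairs of equal replicate number. Alternatives were another scaling, summed reads, pseudocounts of 0.1 and 1, no filter, a replicate block and leaving out each library. Scripts were tested on simulated data.

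Deviations from the group means correlated at 0.13 to 0.41 between libraries of equal replicate number and at most at 0.12 otherwise, so equal numbers from the labels were treated as pairs in the replicate block.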

Additional observations from a re-analysis of the deposited data

Results flagged for a closer look

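In 7 of 72 groups of 5 member RPKM values (9.72%) the highest or lowest library stood far from the others, where chance alone gives about 1 in 20. Control replicate 4 was high for TIA1 (92.2 RPKM, the others 36.01 to 48.95) and for HNRNPUL2 (40.9, the others 34.7 to 36.5). Control replicate 5 was low for HNRNPR (71.5, the others 83.5 to 87.4). SRp55 siRNA replicate 1 was high for HNRNPDL (329, the others 152 to 189.8) and PSPC1 (47.6, the others 29.3 to 33.8). SRp55 siRNA replicate 5 was low for HNRNPM (150.0, the others 197 to 203) and HNRNPUL1 (101, the others 129 to 138). HNRNPL ENST00000221419.5 held 70.7% of the gene's RPKM in control replicate 4, against 3.63 to 8.57% in the other controls.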

How the results depend on the processing

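The main comparison called 684 genes and 1 member. It called 2340 genes and 7 members on summed reads, and with the replicate block 1784 genes and 5 members. Scaling by median-of-ratios called 4 members. Chosen after seeing the data, the block with that scaling called 1587 genes and 6 members. Summed reads with the replicate block, also chosen then, called 4953 genes and 13 members, 5 higher and 8 lower. HNRNPC and KHSRP were among the higher, and FUBP3 and MATR3 among the lower. Leaving out a library gave 259 (without control replicate 2) to 1085 genes (without control replicate 4) and 0 to 3 members, the 3 being HNRNPA3, KHSRP and SFPQ without control replicate 4. Pseudocounts and no filter left the member call as it was. Usage called 34 genes, 52 on estimated reads, 19 at 1 RPKM and 10% usage, and 23 to 51 without a library. The decay share called 1 gene, 0 with the replicate block and 1 to 3 without a library. The retained intron share called 1 gene, 0 with the replicate block, 0 on estimated reads and 1 to 2 without a library. No member was called for usage or a share in any of these. The cause of these differences was not tested. Depth was high for the members, with at least 2929 reads in every library (TIAL1), though these are estimated reads that may be split among copies and overlapping genes. Labels say nothing on whether preparations shared a passage or day.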

Other observations

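Among the 39 other genes, which hold partners of the members, a few were called only under a setting other than the main one, and those named here were chosen after their values were seen. RBM3, a cold-induced RNA-binding protein, averaged 99.7 ± 35.6 RPKM with the control siRNA and 183 ± 52.2 RPKM with SRp55 siRNA (SD, n = 5). Its log2 fold change was 0.80 (limma adjusted p = 0.076), and the adjusted p was 0.035 under median-of-ratios scaling, 0.013 with the block and 0.0096 on summed reads. The 3′ end factors of cleavage factor I differed in direction on summed reads. NUDT21, which binds UGUA upstream of poly(A) sites, had -0.74 there (adjusted p = 3.1e-04) but -0.39 on RPKM (adjusted p = 0.31). CPSF6, its partner, had 0.29 on summed reads (adjusted p = 0.036) and 0.36 on RPKM (adjusted p = 0.13). CPSF7, the alternative partner, had -0.24 on summed reads (adjusted p = 0.025) and -0.18 on RPKM (adjusted p = 0.75). G3BP1, a core stress granule protein, had -0.45 on summed reads (adjusted p = 0.0054) and -0.35 on RPKM (adjusted p = 0.39).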
